A study of Mus musculus with 10 samples.

Results

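The genes described here are those by which lung cells present antigen to helper T cells, 10 in all. They are the class II chain genes H2-Aa, H2-Ab1 and H2-Eb1, the peptide loading genes H2-DMa, H2-DMb1, H2-Oa and Cd74, the class II transactivator Ciita, and the costimulatory ligands Cd80 and Cd86. They were chosen by name, and every array probe carrying one of these names, or an accession that leads to it, was taken (Ciita is listed under its older name, C2ta). This gave 17 of the 41174 probes, and all 10 genes of the 27670 on the array were measured. The lungs came from female mice of BALB/c, an inbred laboratory strain, that arrived at 6 to 8 weeks of age and for which the labels name no transgene or deletion. In the smoke group, 5 mice breathed the mainstream smoke of 12 reference cigarettes, filters removed, in each of 2 daily sessions of 50 minutes, on 5 days of the week over 8 weeks. In the room air group, 5 mice breathed room air only. Each lung was measured on its own array, so n = 5 per group throughout.

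The array carried 2 channels although the labels name only 1 dye. The red channel was read as the lung RNA and the green channel as a reference RNA, because the Y chromosome gene Ddx3y passed the background test in green on all 10 arrays and in red on 2, while the surfactant gene Sftpc was 6.39 log2 units brighter in red. Each level below is therefore the log2 ratio of lung over reference. The table of processed values that accompanies the arrays and the scanner files name the groups in opposite ways: each of the table's 286449 values matches, within 1e-04, the opposite group's array on the same slide. Which of them is right is not settled by these files alone. The paper lists CTSD and CD86 among mouse genes upregulated more than 2-fold by smoke. Under the scanner files' naming, Ctsd was 3.38-fold higher with smoke here. Cd86, one of the 10 genes, was 1.62-fold higher (interval 1.39 to 1.90), short of the paper's 2-fold. The size of the Cd86 difference moved with the processing, as given below. Groups here follow the sample assigned to each scanner file, and under the table's naming every direction below would turn. The share of spots well above background in red was 67.8 to 76.7% with room air and 64.9 to 77.5% with smoke. The 10 arrays lie on 5 slides, and each slide holds the smoke and the room air array of 1 replicate number. On every slide the smoke array has place 1 and its room air partner place 2, so exposure and place on the slide cannot be told apart.

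MHC class II molecules are pairs of an alpha and a beta chain that hold peptides from the endosomes and show them at the cell surface to CD4 T cells. Dendritic cells, B cells and macrophages are the usual carriers, and alveolar type 2 cells of the lung carry them as well. Cd74, the invariant chain, fills the groove until proteases trim it, H2-DM then exchanges its remnant for a peptide, and H2-O restrains H2-DM. Ciita switches the whole set on, and Cd80 and Cd86 give the second signal through Cd28 on the T cell.

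All 10 genes had a higher mean ratio in smoke-exposed lungs, by 0.20 to 0.70 on the log2 scale, and 4 of the 10 rose past the threshold in limma, at an adjusted p under 0.05 over all probes. These were Cd86, H2-DMa, H2-Oa and H2-Aa, and no member fell. Of the 27669 genes tested, 8.23% were called, 4.96% higher and 3.27% lower with smoke. The median log2 difference was 0.37 over the 10 genes and -0.0042 over all genes. In the same 4 genes the lowest smoke array was above the highest room air array, a pattern found in 4.62% of all genes. In 7 of the 10 genes the smoke array was the higher one on all 5 slides, as in 12% of all genes. With the slide as a block, 6 of the 10 genes rose, H2-DMa, H2-DMb1, H2-Oa, Cd74, Ciita and Cd86, against 7.52% of all genes called higher and 13.8% called in either direction. Of the 17 probes 9 passed without the block, against 7.06% of all probes. Leaving out 1 array at a time gave 3 to 7 members that rose and 4 to 8 whose groups did not overlap. The highest counts came without room air 1, where 3660 probes were called against 2906, and without smoke 4, respectively. Fewer arrays in a group make non-overlap easier to reach, and the share of all genes was not taken for these settings. In whole lung, more cells of a carrying type and more RNA per cell cannot be told apart.

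**Figure D1:**
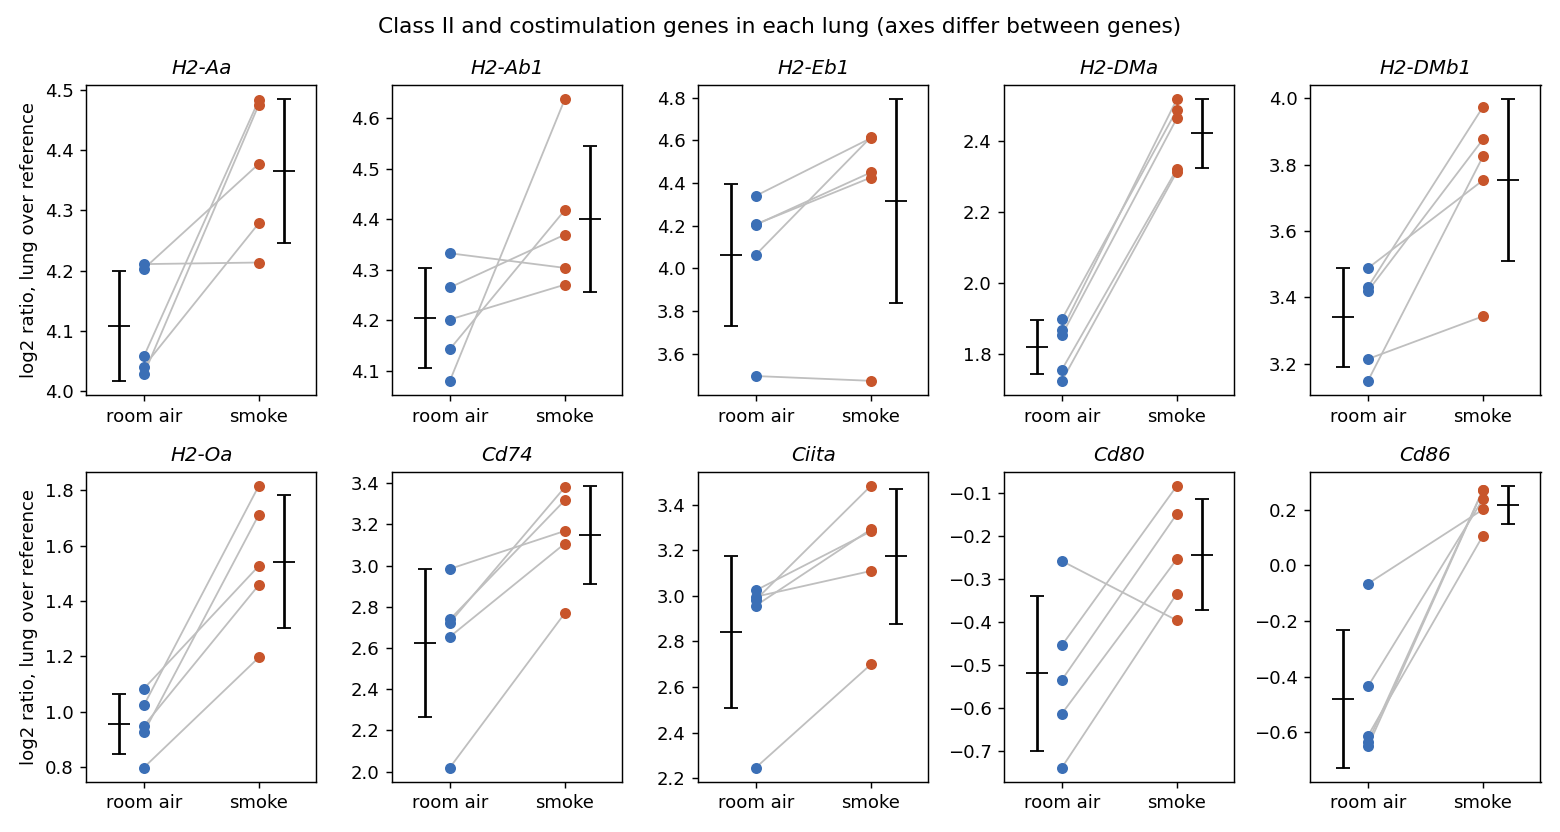
Each panel plots 1 gene by its probe with the brightest red signal, with the log2 ratio of lung over reference on the vertical axis, room air lungs in blue, smoke-exposed lungs in orange and a grey line between the 2 arrays of a slide; black marks give the mean and SD of 5 lungs, and the scale differs between panels. H2-DMa rises by 0.57 to 0.65 on every slide, whereas the groups of H2-Ab1, H2-Eb1, H2-DMb1, Cd74, Ciita and Cd80 overlap.

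H2-Aa encodes the alpha chain of the I-A molecule. Its brightest probe had log2 ratios of 4.20, 4.03, 4.21, 4.06 and 4.04 in the room air lungs and 4.38, 4.48, 4.21, 4.48 and 4.28 in the smoke-exposed lungs, replicates 1 to 5 in order. The groups were parted only narrowly, with the highest room air array at 4.211 and the lowest smoke array at 4.214. The difference was 0.26 (95% interval 0.11 to 0.40), a 1.20-fold rise with an adjusted p of 0.0398, and with the slide as a block the adjusted p was 0.0528. The call was also lost without any 1 of room air 2, 4 and 5 and smoke 1, 2, 4 and 5, with adjusted p-values of 0.0538 to 0.0959. A second H2-Aa probe had log2 ratios of 2.73, 2.36, 2.75, 2.20 and 2.59 with room air and 3.55, 3.07, 3.39, 3.20 and 3.17 with smoke. There the groups were well apart, with a difference of 0.75 (0.49 to 1.02), 1.68-fold, and an adjusted p of 0.0029. The 2 probes, shown since they read the same transcript and differ in size of change, are these 60-base oligos.
H2-Aa, brightest probe: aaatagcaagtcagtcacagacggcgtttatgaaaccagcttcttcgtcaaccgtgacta
H2-Aa, second probe: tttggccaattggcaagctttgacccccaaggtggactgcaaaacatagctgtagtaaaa
The file places the second probe at chr17:32362310-32362369 of mm7, the build of the array design, on the minus strand.

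H2-Ab1 encodes the beta chain that pairs with H2-Aa. Its brightest probe had log2 ratios of 4.14, 4.08, 4.33, 4.20 and 4.26 with room air and 4.42, 4.64, 4.30, 4.27 and 4.37 with smoke. The groups overlapped, smoke 3 and smoke 4 lying within the room air range. The difference of 0.20 (0.03 to 0.36) did not pass (adjusted p = 0.178). Of the 3 other H2-Ab1 probes, 2 passed, with differences of 0.38 (adjusted p = 0.0121) and 0.44 (adjusted p = 0.0235) and no overlap between groups, and the probe printed in 10 spots per array had a difference of 0.34 (adjusted p = 0.174, or 0.022 with the slide as a block).

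H2-Eb1 encodes the beta chain of the I-E molecule. It had log2 ratios of 4.20, 4.06, 4.34, 3.49 and 4.21 with room air and 4.45, 4.62, 4.61, 3.47 and 4.43 with smoke. Both arrays of slide 4 lay far below the other 4 of their group, so that the SD was 0.33 with room air and 0.48 with smoke. The difference was 0.25 (-0.24 to 0.74; adjusted p = 0.674), and with the slide as a block the adjusted p was 0.0716. It was 0.11 without room air 4 and 0.46 without smoke 4.

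**Figure D2:**
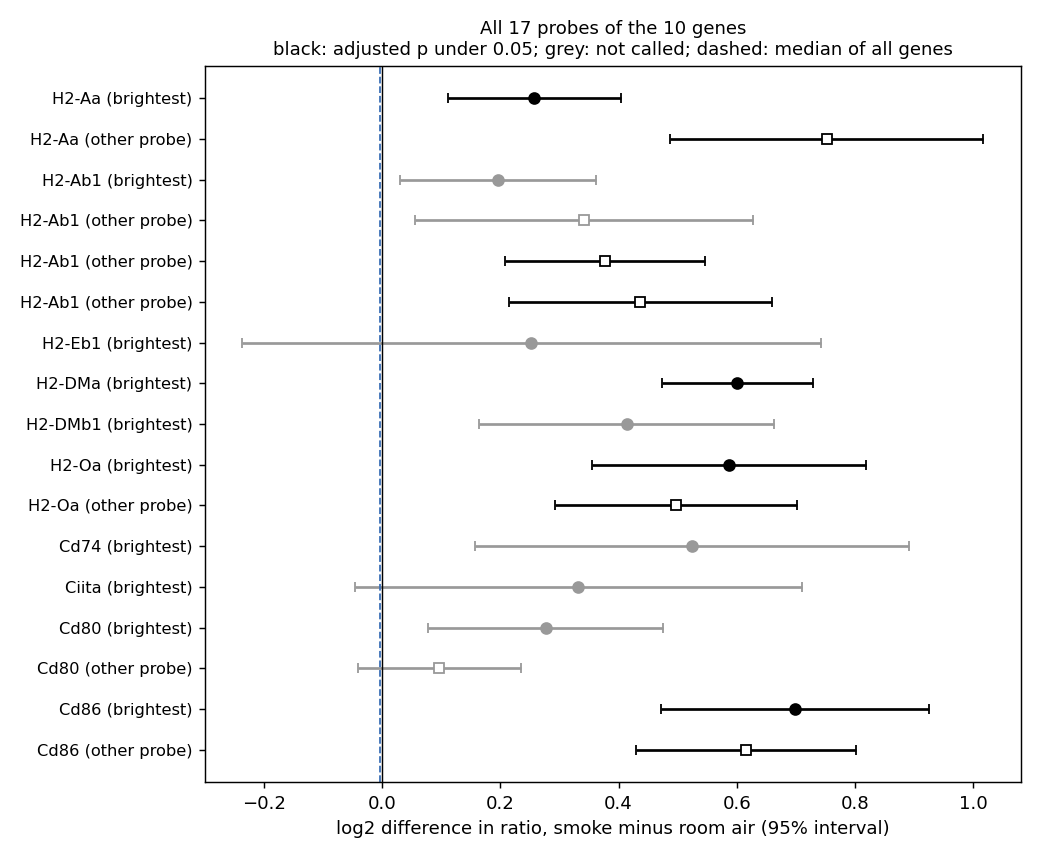
The log2 difference in ratio, smoke minus room air, is plotted for all 17 probes with its 95% interval; round marks are the brightest probe of a gene, square marks its other probes, black marks passed an adjusted p of 0.05, and the dashed line is the median of all genes at -0.0042. All 17 differences lie above 0, from 0.10 for the second Cd80 probe to 0.75 for the second H2-Aa probe.

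H2-DMa encodes the alpha chain of the peptide exchanger. Its log2 ratios were 1.85, 1.87, 1.76, 1.72 and 1.90 with room air and 2.46, 2.52, 2.32, 2.31 and 2.49 with smoke. The groups stood apart by several times their SD of 0.08 and 0.10. H2-DMa rose by 0.60 (0.47 to 0.73), 1.52-fold, with an adjusted p of 0.000105, and the 5 slides gave 0.61, 0.65, 0.57, 0.59 and 0.59.

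H2-DMb1 encodes the beta chain of H2-DM. It had log2 ratios of 3.49, 3.15, 3.42, 3.21 and 3.43 with room air and 3.75, 3.82, 3.88, 3.34 and 3.97 with smoke. Only smoke 4 fell into the room air range. The difference of 0.41 (0.16 to 0.66), 1.33-fold, missed the threshold (adjusted p = 0.0523) and passed it with the slide as a block (adjusted p = 0.0133). Without smoke 4 the difference was 0.52 (adjusted p = 0.00442).

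H2-Oa, the alpha chain of the H2-O molecule, had log2 ratios of 1.02, 0.95, 0.93, 0.80 and 1.08 with room air and 1.82, 1.46, 1.71, 1.20 and 1.53 with smoke. No smoke array reached down to the room air range. H2-Oa rose by 0.59 (0.35 to 0.82), with an adjusted p of 0.00575, and its second probe by 0.50 (adjusted p = 0.0075).

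Cd74 had log2 ratios of 2.98, 2.72, 2.74, 2.02 and 2.65 with room air and 3.17, 3.38, 3.32, 2.77 and 3.11 with smoke. Room air 4 and smoke 4 were the lowest of their groups, and room air 1 lay above smoke 4. The difference was 0.52 (0.16 to 0.89), 1.44-fold (adjusted p = 0.0946). Smoke was higher on 5 of 5 slides, by 0.18 to 0.75, and the blocked fit called the gene (adjusted p = 0.00475). Leaving out room air 1 gave 0.61 (adjusted p = 0.0381).

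Ciita had log2 ratios of 2.96, 2.98, 3.02, 2.25 and 3.00 with room air and 3.29, 3.48, 3.28, 2.70 and 3.11 with smoke. Again both arrays of slide 4 were the lowest of their groups. The difference of 0.33 (-0.05 to 0.71) did not pass (adjusted p = 0.361), and with the slide as a block it did (adjusted p = 0.0125), the smoke array being higher on 5 of 5 slides by 0.11 to 0.50. Without room air 4 the difference was 0.18 (adjusted p = 0.543).

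Cd80 had log2 ratios of -0.26, -0.61, -0.74, -0.45 and -0.53 with room air and -0.40, -0.25, -0.33, -0.08 and -0.15 with smoke. Room air 1 lay inside the smoke range, and slide 1 alone had the smoke array lower. The difference of 0.28 (0.08 to 0.48; adjusted p = 0.106) did not pass, and without room air 1 it was 0.34 (adjusted p = 0.0204). Cd80 was the only member whose brightest probe was not well above background in red on every array. It was so on 3 of 5 room air and 5 of 5 smoke arrays. Its second probe was so on 2 of 5 room air arrays and had a difference of 0.10 (-0.04 to 0.24; adjusted p = 0.505).

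Cd86 had log2 ratios of -0.07, -0.61, -0.65, -0.64 and -0.44 with room air and 0.20, 0.11, 0.27, 0.27 and 0.24 with smoke. Smoke arrays lay close together (SD 0.07) and all above the room air arrays, of which room air 1 was the highest. Cd86 rose by 0.70 (0.47 to 0.92), 1.62-fold, with an adjusted p of 0.00174, and its second probe by 0.62 (adjusted p = 0.00116). The mean log2 red signal of Cd86 was low too, at 6.57 with room air and 7.28 with smoke, against 6.20 and 6.47 for Cd80. The size of both ligands' differences moved with the processing. With the scanner's own log ratio the difference was 1.31 for Cd86 (adjusted p = 0.00861) and 1.24 for Cd80 (adjusted p = 0.133), and with the scanner's red signal alone, scaled to its 75th percentile, 1.32 (adjusted p = 0.00846) and 1.19 (adjusted p = 0.197).

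A ratio depends on both of its channels, and for the chain genes the green channel, the reference, was also brighter on the smoke arrays. With each channel normalized on its own, the green signal of the brightest H2-Ab1 probe was 10.60, 10.66, 10.16, 10.13 and 10.55 on the room air arrays and 10.98, 10.97, 10.97, 11.02 and 11.16 on the smoke arrays. Its log2 difference was 0.60 in green, where the groups did not overlap, and 0.69 in red. For H2-Eb1 the difference was 0.61 in green, again without overlap, and 0.84 in red, and for the brightest H2-Aa probe 0.60 and 0.83. The second H2-Aa probe had -0.02 in green and 0.76 in red, and its green signal was well above background on 2 of 10 arrays. For Cd74 the green difference was 0.24, for the brightest probes of Ciita, H2-DMa, H2-DMb1 and H2-Oa 0.07 to 0.14, and for Cd80 and Cd86 -0.04 to 0.02 over both probes of each.

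In red alone, 8 of the 10 genes rose, all but Ciita and Cd80, where 3.92% of all genes were called higher. In green alone none of the 10 passed the threshold (adjusted p = 0.237 for H2-Ab1), where 0.0361% of all genes were called higher. A green difference over 0.4 was found for 48 of 27669 genes, or 0.173%. Some macrophage and dendritic cell markers also had a brighter green signal on smoke arrays. They included C1qc (1.24), C1qa (1.03), Marco (0.92), Itgax (0.68) and C1qb (0.34). Others differed little in green, with 0.06 for Mrc1, -0.04 for Adgre1 and -0.10 for Chil3. These marker values follow loess and quantile normalization of the mean intensity between arrays, unlike the member values above, where each channel was normalized alone. Whether the green signal follows the red one on the same spot was not tested.

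**Figure D3:**
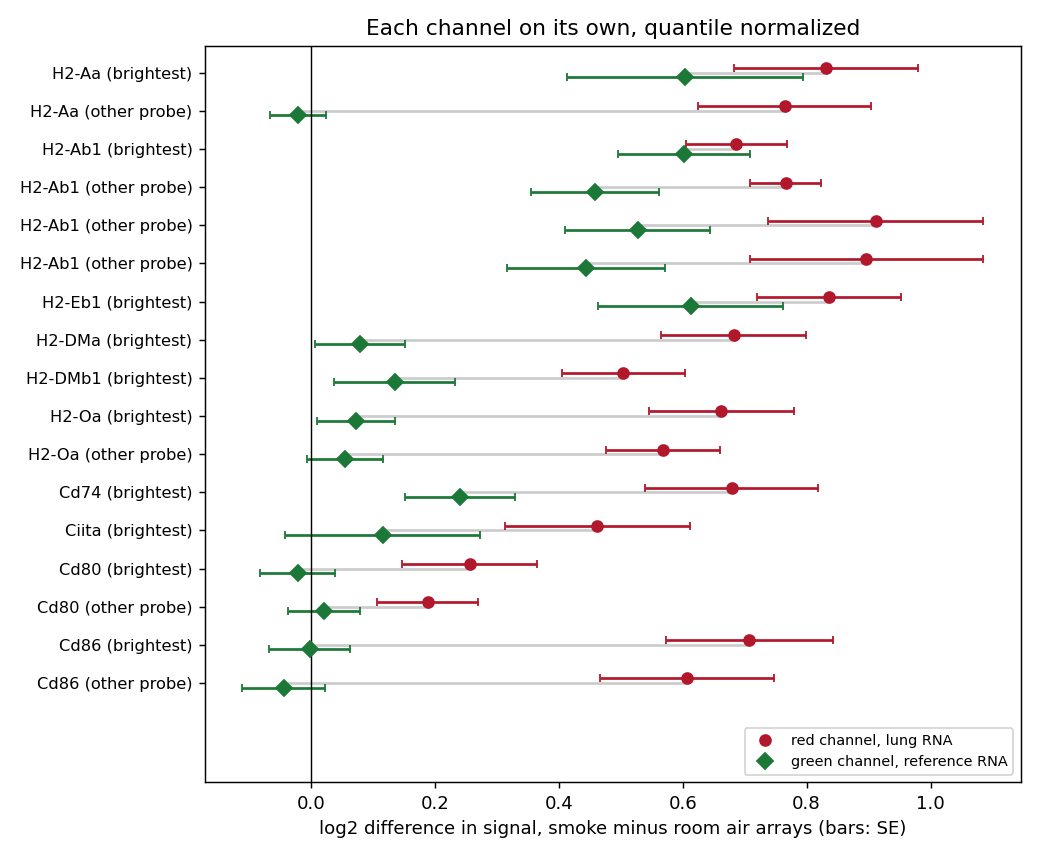
For each of the 17 probes the log2 difference in signal between smoke and room air arrays is plotted for the red channel (lung, circles) and the green channel (reference, diamonds), each normalized by quantiles on its own, with bars of 1 SE. Green differences of 0.44 to 0.61 appear in 6 of the 7 probes of H2-Aa, H2-Ab1 and H2-Eb1, and the largest green difference among the other members is 0.24, for Cd74.

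Ciita does not bind DNA by itself but sits on factors held by the X and Y boxes of class II promoters. The table of RefSeq promoters used here (GRCm38.p6, the C57BL/6J assembly, not BALB/c) holds windows from 250 bases before to 50 after the start, with entries for 6 of the 10 genes and none for H2-Ab1, Cd74, Ciita and Cd86. The Y box core GATTGG was in the window of 5 of these 6 genes and in 16.1% of all 32851 windows, on either strand. The core with GNAAC, taken here as an X box core, 20 to 30 bases before it was in 4 of the 6 genes, H2-Aa, H2-Eb1, H2-DMb1 and H2-Oa, and in 0.651% of all windows. This pair was sought only on the gene's own strand in the named genes, but on either strand in all windows. The member figures count genes, whereas the percentages are of windows. The letters and spacing were chosen after these windows had been read, so the counts are a description. The stretches follow, with both cores in capitals, since they show the layout that the 4 genes share.
H2-Aa, chr17:34287861-34287916, minus strand: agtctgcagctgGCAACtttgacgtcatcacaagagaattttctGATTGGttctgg
H2-Eb1, chr17:34305764-34305818, plus strand: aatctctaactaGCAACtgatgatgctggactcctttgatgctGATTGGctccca
H2-DMb1, chr17:34153085-34153140, plus strand: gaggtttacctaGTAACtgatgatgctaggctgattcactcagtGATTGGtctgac
H2-Oa, chr17:34092291-34092346, plus strand: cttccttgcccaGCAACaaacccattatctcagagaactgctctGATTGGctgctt
The gap between the cores was 27 bases in H2-Aa, H2-DMb1 and H2-Oa and 26 in H2-Eb1, and the Y box core began 44 to 62 bases before the gene start. H2-DMa, which rose, had the Y box core without the pair in 1 of its 2 windows, 199 bases before that start. Cd80 had no Y box core. The X box core was not searched for on its own. Of the other class II genes with a window, H2-Ob and H2-Eb2 had the pair, with gaps of 24 and 26 bases.

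**Figure D4:**
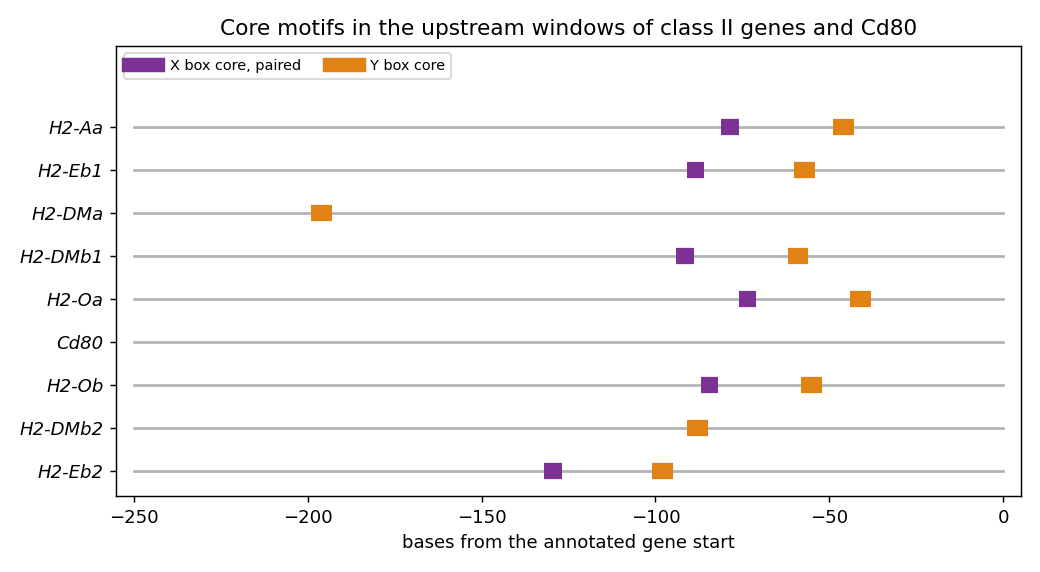
The places of the Y box core (orange) and of the paired X box core (purple) are drawn along the 250 bases before the annotated start, in bases from that start, for 6 member genes and 3 other class II genes, with 1 of the 2 windows of H2-DMa. In H2-Aa, H2-Eb1, H2-DMb1 and H2-Oa the pair lies in the nearer part of the window, with the X box core starting 76 to 94 bases before the start, and H2-DMa and H2-DMb2 have a Y box core without a partner.

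Of the 4 other class II chain genes, none passed the threshold. H2-Ea, the alpha chain of I-E, had a difference of 0.47 (adjusted p = 0.414, or 0.0165 with the slide as a block), and H2-DMb2, a close copy of H2-DMb1, had 0.34 (0.174, or 0.00532 with the block). H2-Ob, the partner of H2-Oa, had 0.07 and was well above background on 7 of 10 arrays, and H2-Eb2, with 0.08, was so on none. The file lists the H2-DMb2 probe under an accession of H2-DMb1 too, so the signal of the 2 genes on it cannot be told apart.

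Of 10 genes for the processing of antigen and the turnover of class II, 6 rose and none fell. Their median difference was 0.73, against 0.37 over the members. Ctsd, an aspartic protease of the lysosome, rose by 1.76 (3.38-fold), Ctss, the protease that trims the invariant chain in antigen-presenting cells, by 1.44 (2.72-fold), Ctsb by 1.02 and Ctsl by 0.60. Ifi30, a reductase that opens disulfide bonds of antigens, rose by 0.77. Marchf1, a ligase that removes class II and Cd86 from the surface, rose by 0.82 (adjusted p = 0.0374), a call lost on leaving out any of 7 single arrays, all but room air 1, room air 4 and smoke 4 (adjusted p = 0.0711 to 0.0941). The others did not pass: the protease Lgmn had 0.49 (adjusted p = 0.22, or 0.027 with the block), Cd83, which opposes Marchf1, 0.68, Marchf8, a relative of Marchf1, -0.01, and the protease inhibitor Cst3 -0.05.

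Among the factors upstream of the members none was called higher, with or without the slide as a block. None of the 8 promoter factors passed the threshold, with differences of -0.24 for Creb1, -0.11 for Nfya, -0.05 for Nfyb, -0.04 for Hdac2, -0.03 for Rfxank, -0.003 for Rfxap, -0.002 for Rfx5 and 0.03 for Nfyc. On the interferon gamma route to Ciita, 1 of 8 genes fell and none rose. The gene that fell was Irf1, a transcription factor that acts on Ciita, by 0.30 on the log2 scale (adjusted p = 0.0351), and its call was lost on leaving out any of 7 single arrays, all but room air 1, 2 and 4 (adjusted p = 0.0547 to 0.086). The cytokine Ifng had -0.20 (adjusted p = 0.387, or 0.0498 with the block), its receptor chain Ifngr1 -0.08, the kinases Jak1 and Jak2 -0.10 and 0.14, and the inhibitor Socs1 0.06. The other receptor chain, Ifngr2, had 0.50 with an interval of 0.16 to 0.83 (adjusted p = 0.0825, or 0.0523 with the block). For comparison, of 12 genes of the MHC class I route 1 was above 0, none rose, and Psmb9, an immunoproteasome subunit, fell by 0.37 (adjusted p = 0.00796), with a list median of -0.15. With the block H2-K1, a class I heavy chain, fell too (-0.26; adjusted p = 0.067, or 0.0247 with the block).

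Among 14 other ligands of T cells, 2 rose and none fell. They were Cd48, the ligand of Cd2 in mice, by 0.53 (adjusted p = 0.00294), and Pdcd1lg2, a ligand of the inhibitory receptor Pdcd1, by 0.29 (adjusted p = 0.00604). Pdcd1lg2 was well above background in red on 3 of 5 room air and 5 of 5 smoke arrays. Its mean log2 red signal was 6.11 with room air and 6.42 with smoke. With the scanner's own log ratio its difference was 1.17 (adjusted p = 0.0269). Of 14 receptors on T cells 4 rose and none fell. Pdcd1 rose by 1.00 (adjusted p = 0.00533), Icos, a relative of Cd28, by 0.91 (0.00299), and the tumour necrosis factor receptors Tnfrsf4 and Tnfrsf18 by 0.74 (0.0011) and 0.54 (0.0016). Cd28, the receptor of Cd80 and Cd86, had 0.19 (adjusted p = 0.387), and its inhibitory rival Ctla4, at 0.03, was well above background on no array.

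**Figure D5:**
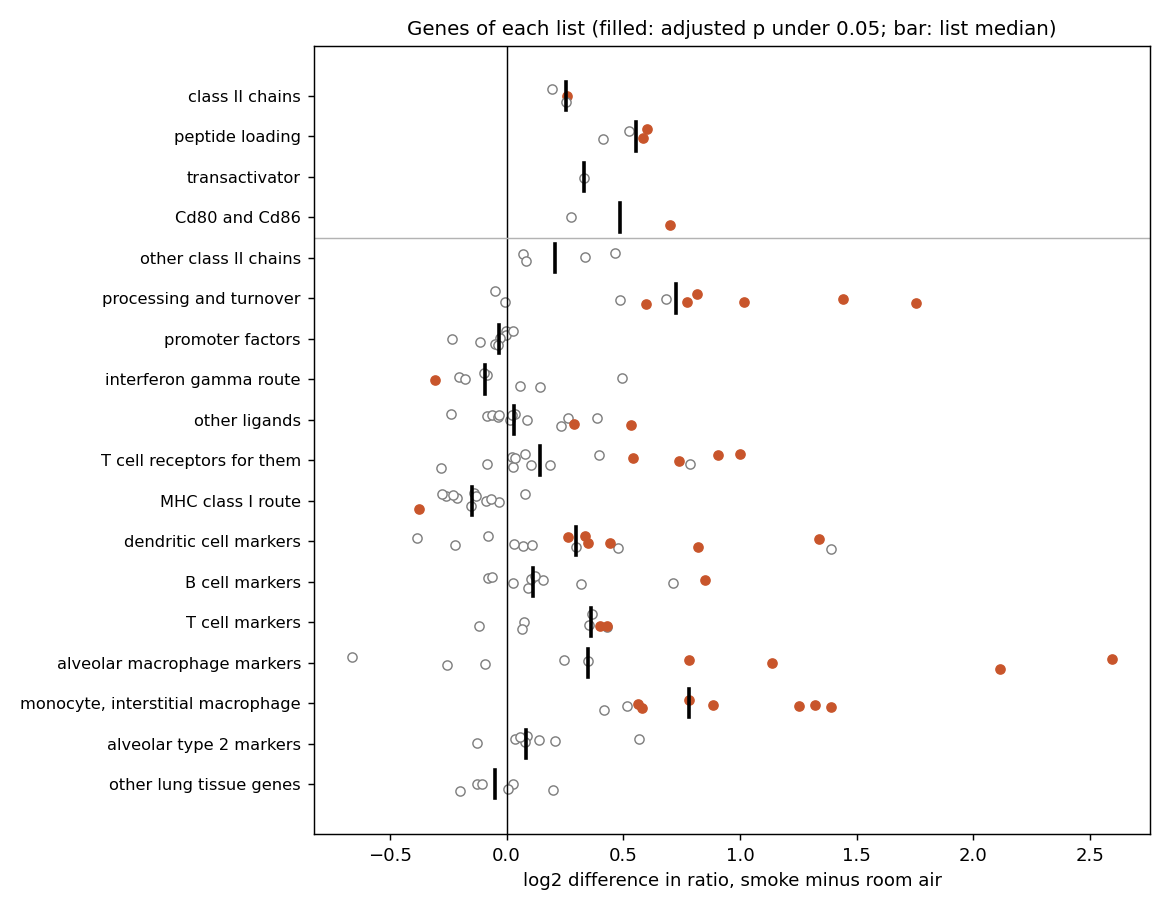
Each point is 1 gene by its brightest probe, placed by its log2 difference in ratio between smoke and room air; filled points passed an adjusted p of 0.05 and the black bar is the median of the list, with the 4 lists of member genes above the grey line. Processing genes and macrophage markers reach further to the right than the members, and the promoter factors and the MHC class I route lie around or below 0.

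Markers of the cells that can carry class II differed in how far they moved with the members. Of 15 dendritic cell markers 6 rose and none fell, led by Itgax (1.34), Itgae (0.82) and Ccr7 (0.44; lost on leaving out any of 7 single arrays, adjusted p = 0.0606 to 0.104), and the mean log2 ratio over the list was 0.68 to 1.08 with room air and 1.06 to 1.26 with smoke. Other dendritic cell markers pointed the other way: Clec10a had -0.38, Clec9a -0.08 and Zbtb46 -0.22, and with the slide as a block Zbtb46 fell (adjusted p = 0.042) while 8 of the list rose. Of 9 markers of monocytes and interstitial macrophages 7 rose, among them Adgre1 (1.39) and C1qb (1.32), and the list mean was 1.29 to 1.77 and 2.22 to 2.60. Of 9 alveolar macrophage markers 4 rose, led by Marco (2.60), Chil3 (2.12) and Mrc1 (1.14), with list means of 3.02 to 3.34 and 3.64 to 4.09. In the same list Fabp1 had -0.66 (adjusted p = 0.0628, or 0.0111 with the block), Fabp4 -0.25 and Car4 -0.09. Several of these genes, Itgax among them, are shared between dendritic cells and alveolar macrophages.

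Of 10 B cell markers 1 rose, Cd22 (0.85), with list means of 0.28 to 0.73 and 0.59 to 0.96. Of 8 T cell markers 2 rose, Cd6 (0.43; lost on leaving out any of 6 single arrays, adjusted p = 0.0506 to 0.0763) and Zap70 (0.40), with list means of 0.17 to 0.50 and 0.38 to 0.80. None of 8 alveolar type 2 markers passed, with Sftpc at -0.13 and Sftpa1 at 0.09 the brightest, and list means of 3.77 to 4.21 and 3.73 to 4.50. With the block 1 of them rose, Sftpd (0.57; adjusted p = 0.0441). Of 6 genes of lung tissue, among them Sftpc and Scgb1a1, a club cell product with a difference of -0.20, none passed, and all were well above background on 10 of 10 arrays. Each marker of these lists was well above background in red on at least 1 of the 10 arrays. The dendritic cell marker Ccl22 was so on only 2 room air and 0 smoke arrays. The part of these cells in the members' values was not tested.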

How the data were processed

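Agilent arrays of the whole mouse genome measured the lung RNA of 10 mice. The authors deposited the scanner output, in which Feature Extraction 9.5.3.1 per the file headers (9.1 per the labels) gives spot and background intensity in both channels and a log10 ratio after its own correction. A second table deposited by the authors holds log2 values, the mean of both channels after subtraction of the local background, with groups named the opposite way to the scanner files. Their text names limma for the mouse arrays and Wilcoxon tests.

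Mean intensity was corrected with normexp (offset 50), loess was applied to the ratios of each array, outlier spots (83 to 144 per array) were set missing and spots of a probe averaged, without a filter on dim probes. Groups were compared, two-sided, with limma 3.58.1 in R 4.3.3, adjusting by Benjamini-Hochberg over 41173 probes at 0.05. A gene is represented by its probe with the brightest mean red signal. Probes were named through accession (22951), current symbol (6659) or synonym (3109), and 8455 kept the file's name. The number of arrays limits the precision. In simulated data for this comparison (41133 probes, 200 changed by 1 log2 unit), 188 were recovered, with 8 false calls. The simulated noise was drawn independently for each array, without the correlation between arrays of a slide given below. The members differed by less, from 0.20 for H2-Ab1 to 0.70 for Cd86, and recovery at these sizes was not tested.

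Arrays of 1 replicate number share a slide, and their deviations from the group means correlated (0.157, 0.46, 0.461, 0.55 and 0.415; median -0.124 between numbers). The main fit, which gave all calls and intervals not marked as blocked, did not use this pairing. A second fit held the slide as a block. Besides the main settings 20 others were set at the start and 1, leaving out slide 1, was added after seeing the data. The members and lists were chosen with earlier results of these data known. Of 147 listed genes 144 were measured. The text names all members, every pathway gene past the threshold, all genes of pathway lists of 10 or fewer, and up to 3 called markers per list or, where none passed, the 2 brightest in red; Cd28, Ctla4 and the marker and class I genes given as going the other way or changing with the block were added after their values were seen. Some genes that this rule covers are not reported here by name.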

Additional observations from a re-analysis of the deposited data

Results flagged for a closer look

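Among the 20 groups of 5 arrays (10 genes in 2 groups), 2 held an array standing apart from the others of its group by Dixon's 95% criterion, where chance gives about 1 in 20. H2-Eb1 in smoke 4 had a log2 ratio of 3.47, with the next array at 4.43. Ciita in room air 4 had 2.25, with the next at 2.96. Both arrays lie on slide 4. Room air 4 was the lowest array of its group in 5 of the 10 genes and smoke 4 in 7.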

How the results depend on the processing

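With the slide as replicate block, 5019 probes were called against 2906, and 6 members against 4; H2-Aa was lost and H2-DMb1, Cd74 and Ciita were gained. The exact Wilcoxon test of the methods, whose smallest p at this size is 0.00794, called 0 probes and 0 members after adjustment, against 5446 probes and 7 members at an unadjusted p under 0.05. The red channel alone called 7 members (75th percentile, with 1759 probes) or 8 (quantile), and 8 members had groups that did not overlap in either. Ratios scaled between arrays left 2 members without overlap. The share of all genes without overlap was taken only under the main settings. The authors' table as labelled called 16 probes and 0 members, had 2 members without overlap, and turned the sign of every member: H2-Aa -0.77, H2-Ab1 -0.63, H2-Eb1 -0.75, H2-DMa -0.34, H2-DMb1 -0.29, H2-Oa -0.37, Cd74 -0.45, Ciita -0.30, Cd80 -0.34 and Cd86 -0.59. The table names the groups the opposite way to the scanner files and averages both channels. Leaving out each array in turn gave 2102 to 3660 called probes, 3 to 7 called members and 4 to 8 members without overlap; the highest counts came without room air 1 (H2-DMb1, Cd74 and Cd80 gained) and without smoke 4 respectively. The call of H2-Aa was lost in 14 of 21 alternatives, those of H2-DMa, H2-Oa and Cd86 only with the Wilcoxon test and the authors' table. Signal near background limits Cd80, and the red signal of Cd86 was also low.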
